A study of Mus musculus with 8 samples.

Results

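Granins and the enzymes that mature prohormones were described in pancreas tissue of 8 male mice, from the rlog value of each gene, which is a log2 expression value corrected for library size. The list held 10 genes, Chga, Chgb, Scg2, Scg3, Vgf, Scg5, Pcsk1, Pcsk2, Pcsk1n and Cpe, and 8 of them were among the 15047 genes with values. Vgf and Pcsk1n were not analysed here. The genes were chosen by their place in the neuroendocrine secretory granule, with the rlog values and the group differences of these 8 mice already known, so that their differences are given as a description and without a test. The mice fell into 3 groups, all formed at 4 weeks of age. LFD (n = 3) and HFD (n = 3) were C57BL/6 WT mice on a low-fat diet or on a diet with 60% of its calories from fat, started at 4 weeks of age and given for 10 weeks. The ob/ob mice (n = 2), C57BL/6J; ob/ob by strain, lack leptin and were on standard chow, so genotype and chow cannot be told apart in their comparison with either diet group. By the legend of the study, the tissue came from mice carrying orthotopic mT organoids, which were grown from pancreatic tumours of mice carrying Pdx1-Cre, a driver active in the pancreatic epithelium, while the sample labels name only pancreas.

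Endocrine cells store peptide hormones in dense-core granules and release them on demand. Granins are acidic proteins that aggregate with calcium and help to build these granules. Prohormone convertases cut the stored precursors at pairs of basic residues, carboxypeptidase E trims the residues left at the new ends, and the granin-like protein encoded by Scg5 (7B2) assists the convertase PC2. In the pancreas this machinery is known mainly from the islets, where it turns proinsulin and proglucagon into active hormones.

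The rlog values of the table ranged from 0.466 to 24.3, and the median of a mouse lay between 7.09 and 7.25. The values are not per length, so levels were compared between mice and not between genes. The mean of 30 acinar genes, all with lower means in HFD and in ob/ob than in LFD, was 17.11 to 17.68 in LFD, 17.50, 15.36 and 13.49 in HFD (replicates in order), and 16.77 and 13.79 in ob/ob. Cpa1, the acinar carboxypeptidase A1, was at 19.91 to 20.01 in LFD and at 16 or more in every other mouse. Lep, whose ob allele is a nonsense change that leaves a transcript, was at 8.12 and 6.78 in ob/ob, 7.26 to 7.31 in HFD and 5.86 to 6.28 in LFD, and therefore does not check the genotype. Less RNA per cell and fewer cells of a type cannot be told apart in bulk tissue.

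The starts of several of these genes hold the cAMP response element (CRE), the 8-letter sequence TGACGTCA bound by CREB, a factor activated by cAMP. Each letter run was searched on both strands in the RefSeq promoter windows of GRCm38.p6, which span 250 bases before to 50 bases after the start of a gene. Windows were at hand for 7 of the 8 measured members, all but Cpe. The element was found in Chgb, Scg2 and Pcsk1, in 1.79% of all 32851 windows and in 3.03% of the windows of 11678 other genes of the table. Its first letters TGACG, which the whole element contains, were found in 7 of the 7 member windows, in 20.8% of all windows and in 29.7% of those of the other genes. The 30 bases around the match are shown for the 3 members with the whole element and for Chga, which has the shorter run alone, because these 4 cover the patterns described next. Capitals mark the match, and each run is written 5′ to 3′ on the strand of the gene.
Chgb: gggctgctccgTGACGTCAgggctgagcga
Scg2: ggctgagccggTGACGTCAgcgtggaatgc
Pcsk1: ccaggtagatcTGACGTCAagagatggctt
Chga: gggcggtcctaTGACGtaatttcctgggtg
The match began 72 bases before the RefSeq start in Chgb (chr2:132781559-132781588, plus strand), 68 in Scg2 (chr1:79440076-79440105, minus strand), 78 in Pcsk1 (chr13:75089768-75089797, plus strand) and 44 in Chga (chr12:102554886-102554915, plus strand). In Gencode M21, the stretches of Chgb and Scg2 fall inside the exon of a transcript that starts further upstream, and those of Pcsk1 and Chga lie 29 and 54 bases outside the gene. A match describes the letters and was not tested for binding. The 3 genes with the whole element differed in their pattern across the mice, as given below, and so did genes without it.

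Of the 8 measured genes 6, Chga, Chgb, Scg2, Scg3, Scg5 and Pcsk2, were higher in both ob/ob mice than in all 6 LFD and HFD mice, an order that 3.77% of all genes showed. Pcsk1 was highest in ob/ob replicate 1 but not in ob/ob replicate 2, and Cpe was high in ob/ob as well as in HFD replicates 2 and 3. The largest difference between ob/ob and HFD among the members was that of Scg2, 2.06 on the log2 scale (standard error 0.39), a 4.16-fold higher level in ob/ob. The members' median difference was 1.88 for ob/ob minus HFD, 1.39 for ob/ob minus LFD and -0.49 for HFD minus LFD. The median of all genes was 0.01, 0.04 and 0.03. All 8 members had a higher mean in ob/ob than in either diet group, whereas 6 of 8 had a lower mean in HFD than in LFD.

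**Figure D1:**
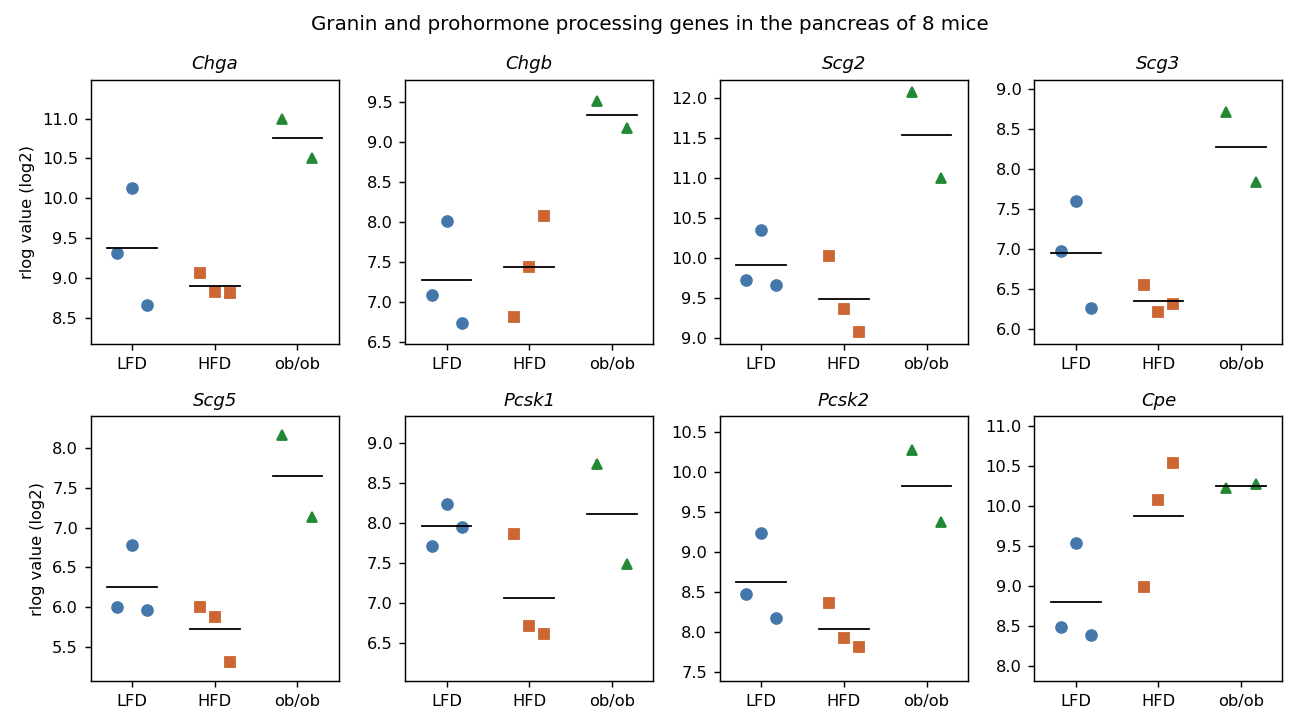
Rlog value (log2 scale, vertical axes of equal length) of the 8 measured genes in each of 8 mice, by group, with a line at the group mean. In 6 genes both ob/ob mice are on top, in Pcsk1 only 1 of them is, and in Cpe the highest mouse is HFD replicate 3 at 10.54.

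Chga encodes chromogranin A, the granin used in pathology as a marker of neuroendocrine cells (chromosome 12 of GRCm38, 102554969 to 102565028, Gencode M21). Its rlog value was 9.32, 10.13 and 8.67 in LFD, 9.07, 8.83 and 8.82 in HFD and 10.99 and 10.51 in ob/ob, here and below with replicates in order. The HFD mice lay within the range of the LFD mice and were close together (SD 0.14, against 0.73 in LFD), and both ob/ob mice were above all others. The difference was 1.84 (standard error 0.37) between ob/ob and HFD and 1.38 (standard error 0.37) between ob/ob and LFD.

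Chgb, chromogranin B (chromosome 2, 132781278 to 132795079), was at 7.08, 8.01 and 6.73 in LFD, 6.81, 7.43 and 8.07 in HFD and 9.52 and 9.17 in ob/ob. Unlike Chga, it was higher in HFD replicate 3 than in any LFD mouse. It had the largest difference of the members between ob/ob and LFD, 2.07 (standard error 0.44, a 4.21-fold higher level), and differed by 0.16 (standard error 0.39) between HFD and LFD. This last difference changed sign to -0.15 without HFD replicate 3, to -0.11 without LFD replicate 3 and to -0.16 with the acinar genes as a covariate.

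Scg2, secretogranin II, the precursor of the peptide secretoneurin (chromosome 1, 79434669 to 79440120), was at 9.72, 10.35 and 9.66 in LFD, 10.02, 9.36 and 9.07 in HFD and 12.08 and 11 in ob/ob. The diet groups overlapped, with HFD replicate 1 between the LFD mice and the other HFD mice below all of them, and the difference of their means, -0.43 (standard error 0.35), became 0.11 with the acinar genes and 0.05 with endocrine transcription factors as a covariate. Scg3, secretogranin III, which tethers granins to the granule membrane (chromosome 9, 75643189 to 75684056), was at 6.98, 7.60 and 6.26 in LFD, 6.55, 6.21 and 6.31 in HFD and 8.72 and 7.84 in ob/ob. In both genes ob/ob replicate 2, the lower of its group, was still above LFD replicate 2, the highest of the diet groups. Against HFD, Scg3 differed by 1.93 (standard error 0.41).

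Scg5, which encodes 7B2 (chromosome 2, 113776362 to 113829121), was at 6.00, 6.78 and 5.97 in LFD, 6.00, 5.88 and 5.31 in HFD and 8.16 and 7.13 in ob/ob. Its partner Pcsk2, the convertase PC2 that is prominent in alpha cells and also acts on proinsulin (chromosome 2, 143546156 to 143816285), was at 8.47, 9.24 and 8.17 in LFD, 8.36, 7.92 and 7.81 in HFD and 10.27 and 9.37 in ob/ob. Chaperone and enzyme thus had the same order of groups, ob/ob above LFD above HFD in the mean, with LFD and HFD overlapping. Scg5 was 1.92 (standard error 0.41) and Pcsk2 1.79 (standard error 0.37) higher in ob/ob than in HFD, and the differences from LFD were 1.40 (standard error 0.41) and 1.19 (standard error 0.37). Without ob/ob replicate 1, the differences from LFD were 0.88 for Scg5 and 0.74 for Pcsk2. In Pcsk2 the mice at the edge of the groups, ob/ob replicate 2 at 9.37 and LFD replicate 2 at 9.24, were closer to each other than either was to the rest of its group.

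Pcsk1, the convertase PC1/3 that cuts proinsulin (chromosome 13, 75089826 to 75134861), was at 7.71, 8.23 and 7.95 in LFD, 7.86, 6.71 and 6.61 in HFD and 8.74 and 7.48 in ob/ob. The ob/ob mice stood on either side of the LFD mice, and HFD replicates 2 and 3 were the lowest of all mice. Pcsk1 had the largest deficit of the members in HFD against LFD, -0.90 (standard error 0.41), with overlapping groups because HFD replicate 1 was at the LFD level. With the acinar genes as a covariate this difference was -0.21. Between ob/ob and LFD it differed by 0.15 (standard error 0.46), and its sign depended on the setting, at -0.48 without ob/ob replicate 1, 0.78 without ob/ob replicate 2, 0.90 with the acinar covariate and -1.09 with endocrine transcription factors as a covariate. Between ob/ob and HFD it differed by 1.05 (standard error 0.46), by 0.41 without ob/ob replicate 1, by 1.68 without ob/ob replicate 2 and by -0.72 with the endocrine covariate. The endocrine covariate was highest in both ob/ob mice, so its values for ob/ob extend the fit beyond levels that the groups shared.

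Cpe, carboxypeptidase E (chromosome 8, 64592542 to 64693054), was at 8.48, 9.53 and 8.39 in LFD, 8.99, 10.08 and 10.54 in HFD and 10.22 and 10.27 in ob/ob. It was the only measured member with a higher mean in HFD than in LFD by more than its standard error, 1.07 (standard error 0.42). Against LFD, the ob/ob mice were 1.45 higher (standard error 0.47) and did not overlap with LFD. Against HFD they were 0.38 higher (standard error 0.47), which became -0.06 without HFD replicate 1.

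**Figure D2:**
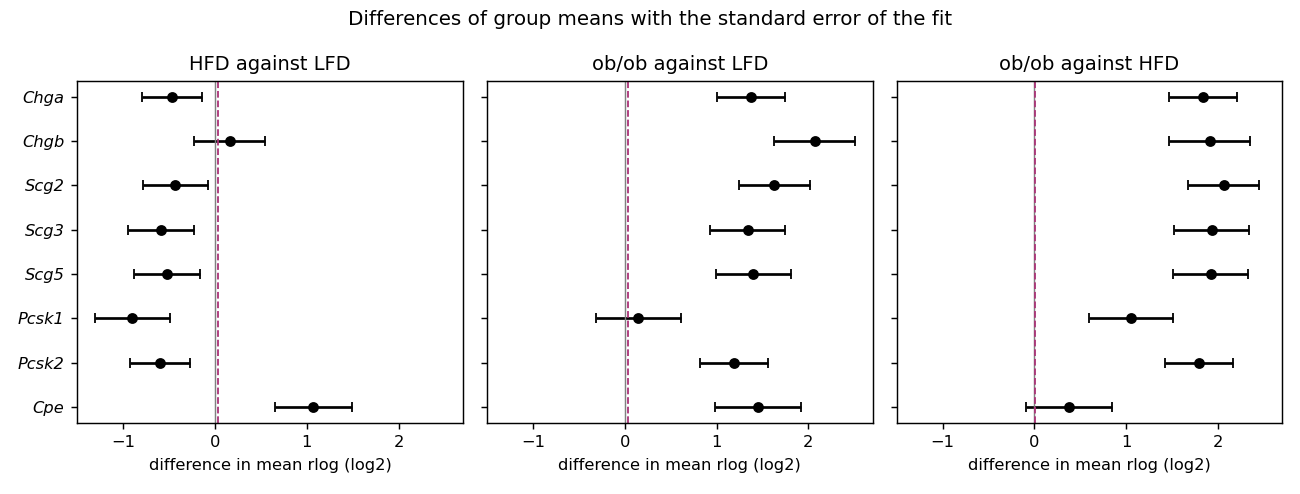
Difference of group means in rlog (log2, horizontal) for the 8 measured genes in the 3 comparisons, with bars of 1 standard error of the limma fit, a grey line at 0 and a dashed line at the median of all genes. In the comparison of ob/ob with HFD 6 genes lie between 1.79 and 2.06, while Pcsk1 is at 1.05 and Cpe at 0.38.

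The following counts of members stand beside those of the whole table, and nothing is read from them because the same comparisons were known when the genes were chosen. Between ob/ob and LFD, 7 of 8 members had no overlap and were higher in ob/ob, as did 24.1% of all genes, and 0 were lower without overlap, as were 21.8% of all genes. Between ob/ob and HFD, 6 of 8 were higher without overlap (7.92% of all genes) and 0 lower (5.42% of all genes). Between HFD and LFD, 0 of 8 had no overlap in either direction (12.9% of all genes higher, 12.3% lower). Without HFD replicate 1, whose acinar level was that of LFD, this last count was 5, with Scg2, Scg5, Pcsk1 and Pcsk2 lower and Cpe higher in HFD, and without this mouse 4519 of all 15047 genes were higher and 3997 (26.6%) lower without overlap. The share of the 15047 genes past an adjusted p-value of 0.05 in limma was 0.0% for HFD minus LFD, 0.0% for ob/ob minus LFD and 0.0% for ob/ob minus HFD, and the smallest adjusted p-value of limma was 0.0864, 0.135 and 0.883. At an unadjusted p-value under 0.05 the share was 19.8%, 18.8% and 3.91% of all genes in the same order.

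The members also shared an order of mice within groups. In each of the 8 measured members the highest LFD mouse was replicate 2, which was the highest LFD mouse in 34.6% of all genes. In 7 of 8, all but Cpe, the highest of all mice was ob/ob replicate 1, as in 5.82% of all genes. Across the 8 mice, Chga, Scg2, Scg3, Scg5 and Pcsk2 correlated with each other at Pearson r between 0.94 and 0.99. Chgb was less close, with r = 0.86 to Chga and 0.77 to Scg5. Pcsk1 had r = 0.77 to Pcsk2 and 0.24 to Chgb, and Cpe had r = 0.76 to Chgb, 0.26 to Scg2 and -0.34 to Pcsk1. These correlations describe 8 mice whose values share a library and its scaling, and differences between groups enter them.

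Genes outside the list with the most similar pattern were sought among the 11825 genes whose mean rlog was 5 or more, by Pearson r over the 8 mice. The mean of the members was closest to Ins1 (r = 0.980), then to Spock2 (0.974), a proteoglycan gene, and Abcc8 (0.968), the sulfonylurea receptor of the beta cell potassium channel. Map3k15, Iapp, Nell1, Syt13, Lpin1, Cltrn and Sphkap followed with r from 0.968 to 0.941. Cltrn, collectrin, is a membrane protein known from beta cells, and Syt13 is a synaptotagmin of endocrine cells. Taken singly, Scg2 and Scg5 were closest to Iapp (r = 0.992 for each), Chga and Pcsk2 to Ins1 (0.974 and 0.993), Scg3 to Map3k15 (0.987), and Chgb to Syt13 (0.959). Pcsk1 was closest to Ttr (0.948), which encodes transthyretin, a product of alpha cells and liver. Cpe was closest to Acta2 (0.984), the smooth muscle actin of myofibroblasts and vessels, and not to a hormone gene.

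Not all hormones carried by these granules had the order of the granins. Ins1, which encodes 1 of the mouse insulins, was at 11.32, 12.26 and 11.16 in LFD, 11.51, 11.06 and 10.85 in HFD and 13.19 and 12.44 in ob/ob. Iapp, amylin, which beta cells release with insulin, was at 10.60, 11.38 and 10.50 in LFD, 10.88, 10.54 and 9.97 in HFD and 13.09 and 11.81 in ob/ob. Both were higher in ob/ob than in all other mice, the order seen for Scg2. Gcg, the glucagon gene of alpha cells, was at 10.41, 11.63 and 10.27 in LFD, 10.42, 9.98 and 9.31 in HFD and 11 and 9.83 in ob/ob. Sst, somatostatin of delta cells, was at 5.66, 6.58 and 5.69 in LFD, 5.73, 4.65 and 5.19 in HFD and 5.79 and 4.36 in ob/ob. Neither Gcg nor Sst was high in both ob/ob mice. After adjustment in limma, 0 of 8 hormone genes had a p-value under 0.05 in any comparison. At an unadjusted p-value under 0.05, 4 were higher in ob/ob than in LFD (Ins1, Ins2, Iapp and Ppy), beside 18.8% of all genes in either direction. In the same way 5 exceeded HFD in ob/ob (these and Pyy), beside 3.91%, and 0 differed between HFD and LFD, beside 19.8%. Iapp had the largest differences, 1.62 (standard error 0.44, adjusted p = 0.19) against LFD and 1.98 (standard error 0.44, adjusted p = 0.883) against HFD with limma.

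**Figure D3:**
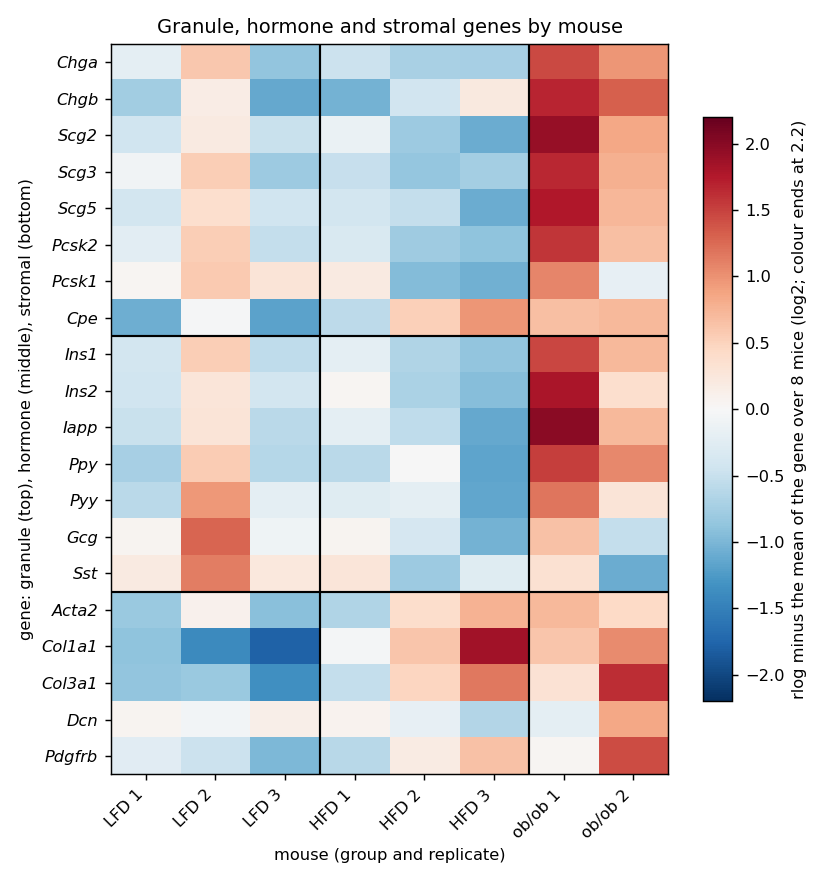
Rlog value minus the mean of the gene over 8 mice (log2, colour ends at 2.2) for the 8 measured genes (top block), 7 hormone genes (middle) and 5 stromal genes (bottom), with mice as columns. The granins except Chgb follow Ins1, Ins2 and Iapp, Gcg and Sst are not high in both ob/ob mice, and the row of Cpe resembles that of Acta2.

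To see the members beside the beta cell hormones, each was taken relative to the mean of Ins1, Ins2 and Iapp in its own mouse, a scale chosen after the values were seen. On this scale the SD over the 8 mice went from 0.98 to 0.15 for Scg2, from 0.91 to 0.14 for Scg5 and from 0.85 to 0.16 for Pcsk2, so these genes kept a near constant distance to the hormones. This is another view of their correlation with the same hormones in the same mice and not a separate result. The differences of ob/ob from LFD became 0.26 for Scg2, 0.02 for Scg5 and -0.18 for Pcsk2. Chga differed by 0.00 and Scg3 by -0.04. For Cpe the SD over the mice was 1.04, above the 0.85 of its rlog values. Chgb was at -4.10, -3.98 and -4.37 in LFD, -4.69, -3.55 and -2.58 in HFD and -3.85 and -3.05 in ob/ob relative to the hormones, with the highest value in HFD replicate 3.

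Pcsk1 had another pattern on this scale, at -3.47, -3.76 and -3.15 in LFD, -3.64, -4.27 and -4.03 in HFD and -4.63 and -4.74 in ob/ob. Both ob/ob mice were below all 6 other mice. The difference was -1.23 (standard error 0.65) between ob/ob and LFD and -0.71 (standard error 0.65) between ob/ob and HFD. Gcg and Sst, taken the same way, were also lower in both ob/ob mice than in all others, with differences from LFD of -1.73 (standard error 0.59) and -2.28 (standard error 0.73). Ins1, Ins2 and Iapp were themselves higher in both ob/ob mice than in all others, so a gene that did not follow them falls on this scale. In rlog the differences of ob/ob from LFD were 0.15 for Pcsk1, -0.35 for Gcg and -0.9 for Sst. As rlog shrinks differences more for genes with few reads, ratios of genes at unlike levels can shift with this shrinkage, whose part in these values was not tested.

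**Figure D4:**
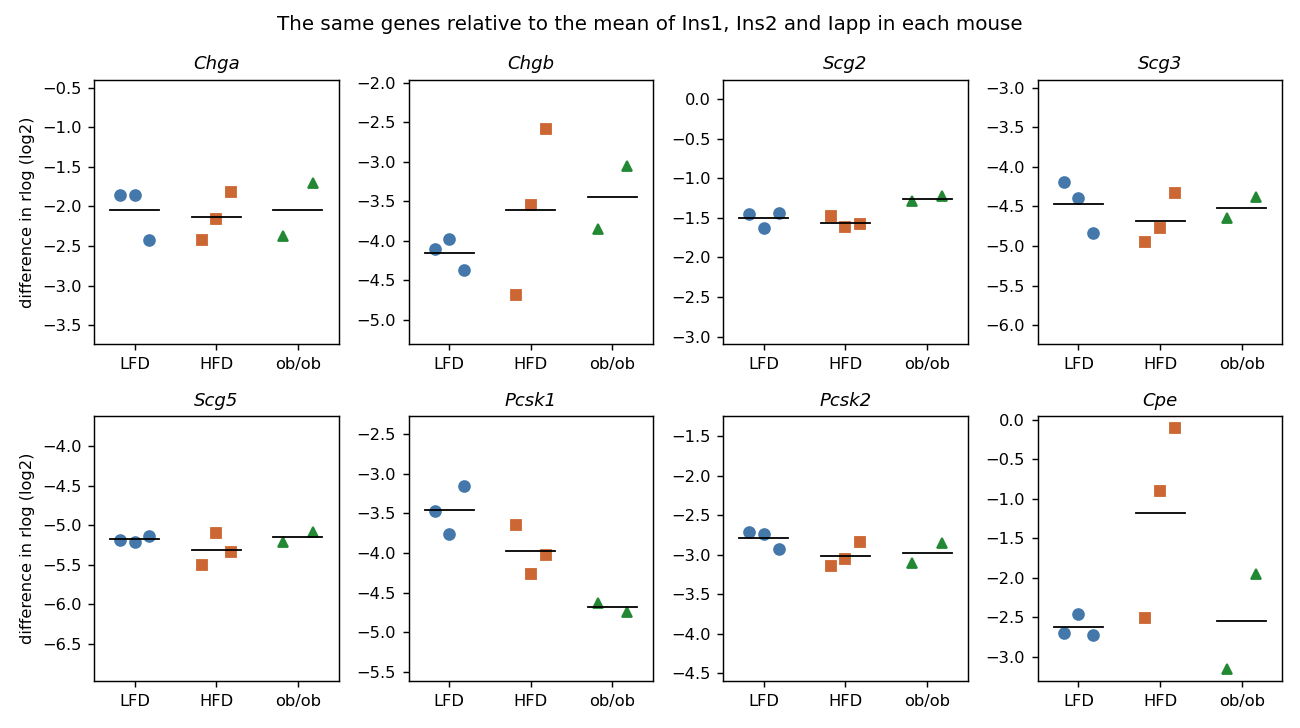
The 8 measured genes relative to the mean of Ins1, Ins2 and Iapp of the same mouse (difference in rlog, log2, vertical axes of equal length), by group, with a line at the group mean. Scg2, Scg5 and Pcsk2 are nearly flat, Pcsk1 is lowest in both ob/ob mice, and Cpe is highest in HFD replicates 2 and 3.

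The other genes of the granule did not form a single pattern. Of 20 listed genes of the granule membrane and exocytosis, 19 had values, and 0 had an adjusted p-value under 0.05 in limma in any of the 3 comparisons. Between ob/ob and HFD 13 had a higher mean in ob/ob. Of these, 5 had an unadjusted p-value under 0.05 (3.91% of all genes in either direction). They were led by Syt13, 1.57 higher (standard error 0.33, adjusted p = 0.883 with limma). Between ob/ob and LFD 6 were higher and 3 lower at an unadjusted p-value under 0.05 (18.8% of all genes in either direction). Rph3al, a Rab effector in exocytosis, had the largest deficit of the list in that comparison, -1.78 (standard error 0.35, adjusted p = 0.139 with limma). It was also lower in HFD than in LFD, by -1.44 (standard error 0.31, adjusted p = 0.175 with limma). Between HFD and LFD 2 of the list were higher and 5 lower at an unadjusted p-value under 0.05 (19.8% of all genes in either direction). Ptprn2, the granule membrane protein phogrin, stood at 10.53 to 10.62 in LFD, 10.40, 8.89 and 7.54 in HFD and 10.18 and 8.34 in ob/ob, so that the HFD and ob/ob mice had the same order in Ptprn2 as in the acinar mean. Pam, which amidates peptides and so acts after Cpe, was at 10.76 to 10.88 in LFD, 10.69 to 10.97 in HFD and 11.29 and 11.04 in ob/ob.

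The convertases and carboxypeptidases outside the list also included many that serve the constitutive pathway, such as Furin. Of 12 such genes, which all had values, 0 had an adjusted p-value under 0.05 in limma. For ob/ob and HFD 0 did so without adjustment, beside 3.91% of all genes. The median difference of this list in that comparison was -0.11, beside 1.88 for the members. Between HFD and LFD 4 were higher and 1 lower at an unadjusted p-value under 0.05 (19.8% of all genes in either direction).

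Of 15 endocrine transcription factors 14 had values, most of them low. The list includes the repressor Rest. The list mean was 3.8 to 4.12 in LFD, 3.70 to 3.92 in HFD and 4.76 and 4.36 in ob/ob. All 14 had a higher mean in ob/ob than in HFD, with Rest 0.12 higher (standard error 0.26). The median difference of the list was 0.75, beside 0.01 for all genes. Of the 14 factors, 4 had an unadjusted p-value under 0.05 in limma (3.91% of all genes in either direction) and 0 an adjusted one. Pax6, a regulator of islet hormone genes, was 1.56 higher (standard error 0.32, adjusted p = 0.883 with limma). Against LFD, 12 of the 14 factors had a higher mean in ob/ob and 2 a lower one. The lower ones were Pdx1 (-0.28, standard error 0.3) and Nkx2-2 (-0.12, standard error 0.46). The list median against LFD was 0.5, beside 0.04 for all genes. There, 3 factors were higher at an unadjusted p-value under 0.05 in limma (18.8% of all genes in either direction). With the mean of the list except Rest as a covariate, the median difference of the members for ob/ob minus HFD was 0.40. As the factors were highest in both ob/ob mice, this value extends the fit beyond levels that the groups shared. Rest, the repressor of neuronal and endocrine genes in other cells, was at 8.06 to 8.50 in LFD, 8.63 to 9.06 in HFD and 8.63 and 9.35 in ob/ob.

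Other cells can also express granins or Cpe, and their markers were set beside the members. Of 15 neuron and chromaffin markers 5 had values, Tubb3, Stmn2, Ret, Snap25 and Syp, with a list mean of 4.30 to 4.80 in LFD, 4.33 to 5.02 in HFD and 5.18 and 5.93 in ob/ob. Snap25 was also counted among the genes of the granule membrane and exocytosis. Against LFD, 4 of the 5 had a higher mean in ob/ob and 1 a lower one, with a median of 1.15. In limma 2 were higher at an unadjusted p-value under 0.05 (18.8% of all genes in either direction) and 0 at an adjusted one. The defining genes Th, Dbh, Pnmt, Elavl3, Elavl4 and Prph were not analysed here. Snap25, Syp and Ret were lower in ob/ob replicate 2 than in replicate 1, as the granins were (5.18 and 4.21 for Snap25 in replicates 1 and 2), while Stmn2 (4.89 and 8.60) and Tubb3 (4.71 and 7.10) were higher in replicate 2. Of 9 enteroendocrine markers 3 had values, with a list mean of 2.52 to 3.02 in LFD, 3.09 to 4.60 in HFD and 3.89 and 3.51 in ob/ob. The 5 Schwann cell markers with values had a mean of 4.43 to 5.0 in LFD, 4.71 to 4.84 in HFD and 4.55 and 5.05 in ob/ob. The part of these cells in the levels of the members was not tested.

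Cpe moved with some of the stromal genes. All 10 fibroblast markers had values, and their mean was 9.0 to 9.48 in LFD, 9.89, 10.44 and 10.56 in HFD and 10.19 and 11.02 in ob/ob, without overlap between LFD and either other group. Col1a1, a fibrillar collagen, was 2.16 higher in HFD than in LFD (standard error 0.45, adjusted p = 0.175 with limma) and 2.19 higher in ob/ob (standard error 0.50, adjusted p = 0.168). Of the 10 markers 9 had a higher mean in HFD than in LFD and 1, Dcn, a lower one (-0.29, standard error 0.30). Dcn was at 12.12, 11.86 and 11.39 in HFD, lowest in replicate 3, where Cpe was highest. Acta2, the gene closest to Cpe and not 1 of the 10 markers, was at 7.72, 8.62 and 7.61 in LFD, 7.87, 8.92 and 9.29 in HFD and 9.24 and 8.97 in ob/ob. It shared with Cpe a high LFD replicate 2, which every measured member had, and a low HFD replicate 1. The mean of the fibroblast markers was highest of the LFD mice in replicate 1 (9.48, 9.34 and 9.0 in order), unlike Cpe. Cpe correlated with Col1a1 at r = 0.85. Chgb correlated with Acta2 at 0.81, Col3a1 at 0.68 and Col1a1 at 0.54, beside 0.79 with Ins1, and Scg2 with Col1a1 at 0.07. At an unadjusted p-value under 0.05, 6 of the 10 markers were higher in HFD and 8 in ob/ob than in LFD, with 0 at an adjusted p-value under 0.05 in limma. Of all genes, 19.8% (HFD against LFD) and 18.8% (ob/ob against LFD) passed the unadjusted threshold in either direction. Of the 10 duct and tumour epithelium markers 5 were higher in HFD than in LFD at an unadjusted p-value under 0.05 and 0 at an adjusted one. The mean of the 10 was 9.38 to 9.65 in LFD, 9.68 to 10.37 in HFD and 9.73 and 9.05 in ob/ob. Relative to HFD, the ob/ob mice had a lower mean in 9 of these markers and a higher one in 1. The median of these differences was -0.88, beside 1.88 for the members. In limma 5 were lower and 0 higher at an unadjusted p-value under 0.05 (3.91% of all genes in either direction), and 0 passed after adjustment. The part of the stroma and of the tumour in the level of Cpe was not tested.

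**Figure D5:**
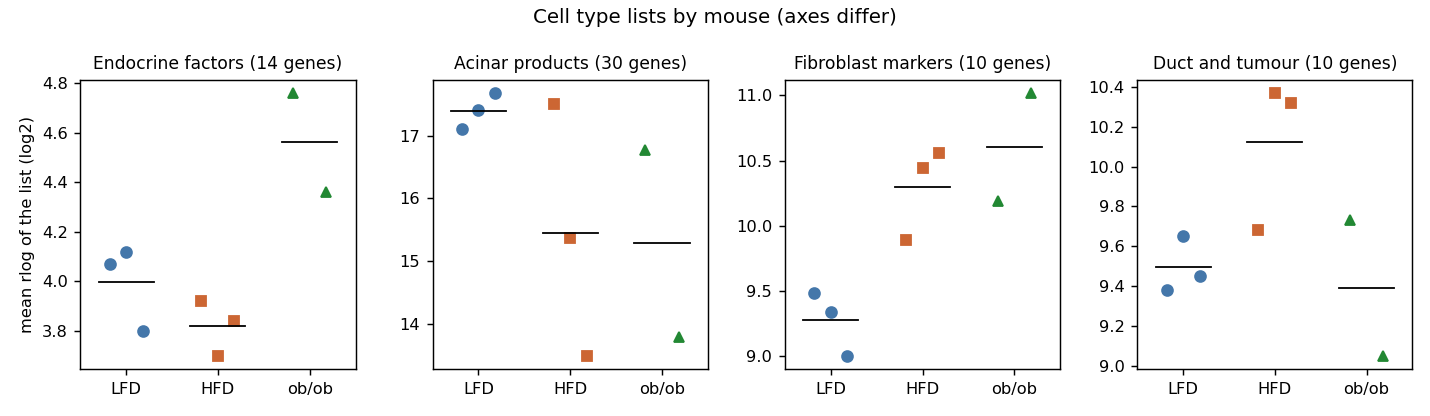
Mean rlog value (log2, axes differ) of 4 marker lists in each mouse, by group, with a line at the group mean. The endocrine factors (Rest included) are highest in both ob/ob mice, the acinar genes are low in HFD replicates 2 and 3 and ob/ob replicate 2, and the fibroblast markers are above LFD in all 5 other mice.

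The acinar level moved with some members within groups. In HFD, Scg2, Scg5, Pcsk1 and Pcsk2 had the order of the acinar mean, highest in replicate 1 and lowest in replicate 3. Chga had this order too, with replicates 2 and 3 nearly equal at 8.83 and 8.82. Cpe and Chgb had the opposite order. In ob/ob, the mouse with the higher acinar mean, replicate 1, was also the higher in every measured member except Cpe. Each ob/ob mouse, at acinar means of 16.77 and 13.79, was above all HFD mice in Chga, Chgb, Scg2, Scg3, Scg5 and Pcsk2. With the acinar mean as a covariate, the median difference of the members was 1.60 between ob/ob and LFD (1.39 without it), 1.87 between ob/ob and HFD (1.88 without it) and -0.18 between HFD and LFD (-0.49 without it). The part of the acinar cells in these levels was not tested further.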

How the data were processed

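The authors sequenced total RNA of pancreas in paired ends and, after FastQC, used Salmon 0.11.3 on the Gencode M18 transcripts (GRCm38.p6), with sums per gene by tximport. The authors deposited the rlog values of DESeq2 1.22.2, which are on the log2 scale, corrected for library size and shrunken for genes with few reads. The filter that left 15047 genes is not given in the sources used here. Counts were not used, so the depth of each mouse is unknown and only the spread between mice is given. No pair of mice held identical values.

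Groups came from the sample labels. Differences between group means were fitted over all genes and 8 mice in limma 3.58.1 (R 4.3.3) using a variance trend on the mean and Benjamini-Hochberg adjustment over 15047 genes, two-sided. The fit was tested on simulated data. The members and the 10 other lists were chosen with earlier results of these data known. Named genes are the members, the largest differences of each list in each comparison, defining markers, and the genes most like the members, and some genes that this rule names are not reported here. Hormone genes shown by mouse, and those compared with the hormones, were picked after their values were seen. Gene positions come from Gencode M21, on the same assembly, and promoters from RefSeq. Tables were made with Python 3.11.15 and pandas 2.3.3.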

Additional observations from a re-analysis of the deposited data

How the results depend on the processing

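No depth was known, and with 2 ob/ob mice, leaving 1 out assumes that the other varies like the remaining groups. In the main fit the 24 differences of single members are differences of group means. They cannot change without the variance trend, with only the groups compared or over genes whose mean rlog was 5 or more. After median centring or quantile normalization, with array weights or with the replicate block, 0 of the 24 moved by more than the residual SD. With the acinar and the endocrine factor covariate 4 and 14 did, and relative to Ins1, Ins2 and Iapp 16 did. Leaving out 1 mouse can change only the comparisons that hold its group. By the same measure 6 moved without ob/ob replicate 1, 6 without ob/ob replicate 2, and 0 without any single LFD or HFD mouse. With the replicate number as a block, which names different animals (r of deviations from -0.281 to 0.592), the members' median difference was 1.2 for ob/ob minus LFD, and 0 genes had an adjusted p-value under 0.05.

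The endocrine factor covariate was highest in both ob/ob mice, so the ob/ob differences fitted with it extend beyond levels that the groups shared. With the endocrine factor covariate, the members' median difference was -0.06 (HFD minus LFD), 0.42 (ob/ob minus LFD) and 0.40 (ob/ob minus HFD). Relative to Ins1, Ins2 and Iapp, which was added after the data were seen, it was -0.11, 0.01 and 0.12, and 3 and 2 members had no overlap in the comparisons of ob/ob with LFD and HFD. On leaving out each mouse, it went from -0.74 (without LFD replicate 3) to -0.23 (without LFD replicate 2) for HFD minus LFD, from 0.99 (without ob/ob replicate 1) to 1.71 for ob/ob minus LFD, and from 1.44 (without the same mouse) to 2.17 for ob/ob minus HFD. Between HFD and LFD, median centring and quantile normalization each left 1 member without overlap, and leaving out each mouse gave 0 to 5, the most without HFD replicate 1.

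The number of genes with an adjusted p-value under 0.05, 0 in each comparison, was 6656 for HFD against LFD with array weights and 1 with only the groups compared, and 0 to 2812 on leaving out each mouse (2812 without HFD replicate 1). For ob/ob against LFD it was 38 with only the groups compared, 1 with the acinar covariate and 0 to 89 on leaving out each mouse (89 without HFD replicate 1, 61 without ob/ob replicate 1). For ob/ob against HFD it was 1 with the acinar covariate and 0 to 1 on leaving out each mouse. The cause of these changes was not tested.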
